A study of Homo sapiens with 10 samples.

Results

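The genes of the replicative helicase and of origin firing were followed in HepG2 cells, a human hepatoma line, during endoplasmic reticulum (ER) stress. The set held MCM2, MCM3, MCM4, MCM5, MCM6, MCM7, MCM10, CDC45, GINS2 and CDT1, found by their symbols, each once, among the 32738 genes of the count table. All 10 passed the filter on low counts, which left 12733 genes for testing. The control group was 5 cultures in regular growth medium without any agent, and the tunicamycin group was 5 cultures given 2 µg/ml tunicamycin, an inhibitor of N-linked glycosylation, for 17 h. Replicates 1 to 5 were experiments of separate days, so the p-values below rest on the spread between days in a single tumour line at a single dose and time. Control and tunicamycin libraries with the same replicate number were taken to be from the same day. The sample labels give the numbers but no days. RNA was read as 3′ tags (QuantSeq), which count the ends of transcripts and do not resolve their internal structure.

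Duplication of the genome starts at origins that are licensed in G1 phase, when the origin recognition complex, CDC6 and CDT1 load the ring of MCM2 to MCM7 onto DNA in an inactive form. As S phase starts, the kinases CDC7-DBF4 and CDK2-cyclin E bring in CDC45 and the GINS complex, which turn the ring into the active CMG helicase (CDC45, MCM, GINS), and MCM10 is needed for it to begin unwinding. Many of these genes are known targets of E2F transcription factors, which are held in check by proteins of the retinoblastoma family until a cell commits to divide.

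The libraries held 4242538 to 4888292 counts in the controls and 2234682 to 5029864 with tunicamycin, the shallowest being tunicamycin replicate 5. The treatment was visible in all 6 ER stress genes looked at as a check, which rose by 1.42 to 3.76 on the log2 scale with DNAJB9, an ER co-chaperone, at the top. The hepatocyte genes ALB, AFP, APOA1, APOB, TTR, SERPINA1, FGB and HNF4A were detected in every library. Of the 8, 4 fell and 0 rose, where 16.6% of all genes tested fell and 17.6% rose. Among markers of other cell types, PTPRC was at 0 throughout, VWF, COL1A1 and COL3A1 were at 0 in at least 9 of 10 libraries, PECAM1 was not listed under that symbol, and the summed level came from CD68 and ACTA2 almost alone, at 129 to 199 normalized counts in the controls and 65.9 to 202 with tunicamycin. CD68 itself fell, from 27.8 to 15.6 normalized counts (adjusted p = 0.0319), and the part of such markers in the results below was not tested.

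Promoter sequence is described first, since E2F is the best known regulator of this group. The RefSeq promoter table (GRCh38.p14; 250 bases before to 50 after each annotated start) held 8 of the 10 genes, all except MCM4 and MCM5. The E2F letters searched were TTCCCGC or TTCGCGC or TTGCCGC or TTGGCGC on both strands, where a palindromic stretch is counted on each. They were present in 6 of the 8 genes, MCM2, MCM3, MCM6, MCM7, GINS2 and CDT1, and in 15.3% of all 27305 genes in the table. With 1 more T in front the letters were still present in the same 6 genes, compared with 3.99% of all genes. These shares, and those of other letters below, are over all genes in the promoter table, whether or not they were tested here. The share among tested genes only was not computed. The stretches that hold the match closest to the start are shown because they lie near the starts of genes that fell together. Each is written 5′ to 3′ on the strand of its gene, with the E2F letters in capitals.
MCM2, chr3:127598404-127598433, plus strand: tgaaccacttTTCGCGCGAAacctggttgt
MCM3, chr6:52284728-52284757, minus strand: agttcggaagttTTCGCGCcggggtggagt
MCM6, chr2:135876513-135876542, minus strand: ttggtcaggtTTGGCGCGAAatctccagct
MCM7, chr7:100101386-100101415, minus strand: ggggcgacgtTTCGCGCCAAtttcggttgg
GINS2, chr16:85688968-85688997, minus strand: gctctcgccgtgGCGGGAAaacggcggccg
CDT1, chr16:88803748-88803777, plus strand: gcgcccGCGGGAAatttgGCGGGAAccgcg

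In MCM2, MCM6 and MCM7 the capitals join a forward and a reverse copy that overlap, and in CDT1 the same letters occur at 2 places within the stretch. Counted from the RefSeq start, the match spanned positions 4 to 13 in MCM2 and -3 to 4 in MCM3, and lay upstream at -89 to -80 in MCM6. The E2F letters were not found in these windows of MCM10 and CDC45. CCAAT was present in 6 of the 8 genes, against 39.7% of all genes, and GGGCGG in 7 of 8, against 48.3%. The cell cycle homology letters TTTGAA were present in 0 of the 8 genes, against 18.2% of all genes. These are matches of letters and not binding sites, and a window without them says nothing of the factor.

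Most of the helicase genes were lower with tunicamycin. The set was chosen with earlier results of these data known, so its counts beside those of all genes are a description. By edgeR's quasi-likelihood test with Benjamini-Hochberg adjustment over all genes tested, 9 of the 10 genes fell and 0 rose, where 16.6% of all genes tested fell and 17.6% rose. A fall of more than 2-fold was called for 8 of the 10, against 3.65% of all genes, and in 9 of the 10 every tunicamycin library lay below every control library, against 11.9%. In 0 of the 10 did every tunicamycin library lie above, against 11.7%. The median log2 fold change was -1.31, while that of all genes tested was -0.003. CDC45 was the exception and did not pass the test. In RNA from whole cultures, fewer cells passing through S phase and less of these transcripts per cell cannot be told apart.

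**Figure D1:**
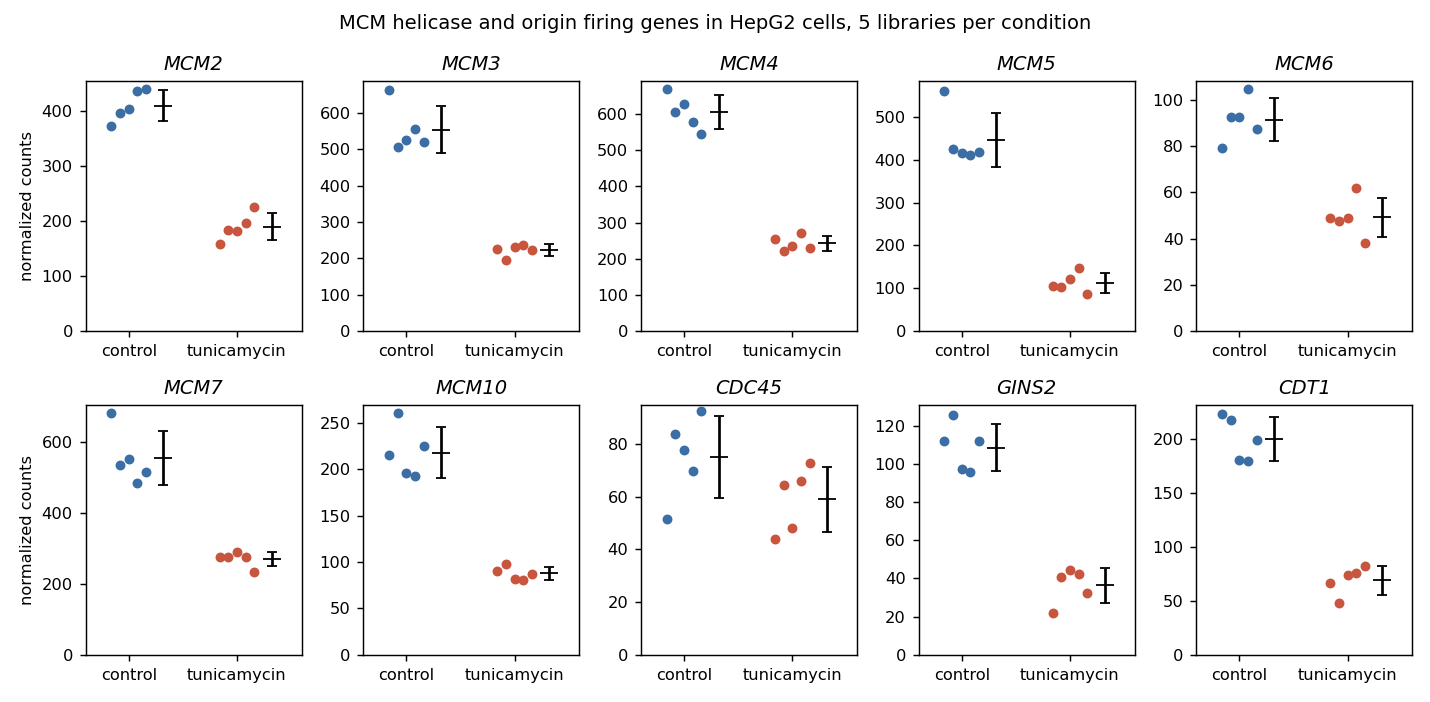
Normalized counts of each gene (vertical axes start at 0) in the 5 control and 5 tunicamycin libraries, 1 point per library, with the mean and SD of each group. The groups are separate for every gene but CDC45, whose tunicamycin libraries (43.9 to 72.6) overlap the controls (51.6 to 92.5).

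Values are given below as normalized counts, that is, counts scaled for library size and composition, in the order of replicates 1 to 5, and fold changes are edgeR estimates on the log2 scale with their standard errors.

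Among the ring subunits, MCM5 fell the most. MCM5 (ENSG00000100297, chr22:35400134-35425431), a subunit of the regulatory side of the ring, where it closes the gate with MCM2, stood at 559.5, 425.3, 414.7, 410.3 and 418.8 in the controls and at 104.7, 104.2, 120.9, 148.4 and 86.8 with tunicamycin. The lowest control library was well above the highest treated one, and 25.4% of the control mean remained. The log2 fold change was -1.97 ± 0.13 (adjusted p = 1.45e-09), and 0.636% of all genes tested had a lower one. Control replicate 1 was higher than the other controls, and without it the estimate was the smallest of those with a single library left out, at -1.88.

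MCM4, MCM6 and MCM7 form the catalytic core of the helicase. MCM4 (ENSG00000104738, chr8:47960185-47978160) stood at 668.8, 604.6, 627.3, 577.9 and 545.8 in the controls and at 255.9, 221.3, 236.2, 272.0 and 230.0 with tunicamycin. MCM7 (ENSG00000166508, chr7:100092233-100101940) stood at 681.7, 535.0, 552.1, 484.7 and 515.3, and fell to 275.3, 274.9, 289.1, 274.8 and 234.1. In both genes the lowest control library was above the highest treated one. The log2 fold change was -1.31 ± 0.09 for MCM4 (adjusted p = 2.74e-09) and -1.03 ± 0.10 for MCM7 (adjusted p = 2.68e-07). MCM6 (ENSG00000076003, chr2:135839626-135876443) had the fewest tags of the ring subunits, with 79.2, 92.7, 92.7, 104.8 and 87.4 in the controls against 49.0, 47.6, 49.1, 61.8 and 38.3. The gap between its groups was narrower, although they did not overlap, and 53.8% of the control mean remained. Its log2 fold change, -0.88 ± 0.15 (adjusted p = 0.000136), rested on 86 to 117 raw counts in a control library and on 19 to 58 in a treated one.

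MCM2 and MCM3 complete the ring. MCM2 (ENSG00000073111, chr3:127598410-127622436), which also binds histones at the fork, stood at 373.6, 397.7, 404.2, 437.2 and 441.1 in the controls and at 157.9, 184.6, 183.3, 197.8 and 226.0 with tunicamycin. MCM3 (ENSG00000112118, chr6:52264014-52284881), which is contacted by CDC6 during loading, stood at 663.6, 506.5, 525.8, 554.6 and 518.4 and then at 225.5, 196.5, 231.4, 237.7 and 224.0. In both genes every pair of libraries from the same day fell, by 0.96 to 1.24 on the log2 scale for MCM2 and by 1.18 to 1.55 for MCM3. The fitted log2 fold changes were -1.13 ± 0.10 (adjusted p = 9.31e-08) and -1.31 ± 0.10 (adjusted p = 6.44e-09).

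Of the 4 loading and activation factors, CDT1, GINS2 and MCM10 fell and CDC45 did not pass the test. CDT1 (ENSG00000167513, chr16:88803789-88809258), which carries the ring to the origin, stood at 222.9, 217.6, 180.2, 179.2 and 199.2 in the controls and at 66.7, 47.6, 73.7, 75.6 and 82.7 with tunicamycin. GINS2 (ENSG00000131153, chr16:85676198-85690073), a subunit of the GINS complex, stood at 111.9, 125.7, 97.1, 95.9 and 111.8 and then at 22.0, 40.7, 44.4, 42.6 and 32.3. Of the control mean 34.7% was left for CDT1 and 33.5% for GINS2, with log2 fold changes of -1.55 ± 0.14 (adjusted p = 8.4e-08) and -1.58 ± 0.18 (adjusted p = 1.41e-06). GINS2 showed the widest range of the day-by-day ratios, from -2.32 to -1.12, on 16 to 47 raw counts in a treated library. MCM10 (ENSG00000065328, chr10:13161558-13211110), which acts at the last step of activation, stood at 215.2, 260.4, 196.0, 192.6 and 224.6 in the controls. With tunicamycin it fell to 90.4, 98.2, 82.2, 81.1 and 86.8. It had the narrowest range of the 10, since each day gave a log2 ratio between -1.40 and -1.24, and the estimate was -1.31 ± 0.12 (adjusted p = 9.27e-08).

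CDC45 (ENSG00000093009, chr22:19479457-19520612), the helicase cofactor that joins the ring together with GINS, stood at 51.6, 83.8, 77.9, 69.9 and 92.5 in the controls and at 43.9, 64.5, 48.2, 65.9 and 72.6 with tunicamycin. Each treated library was below the control of its own day, by 0.08 to 0.69 on the log2 scale, yet the groups overlapped. The log2 fold change was -0.38 ± 0.18 with a 95% interval from -0.76 to 0.01 (adjusted p = 0.121), so a fall of up to that size could not be told from no change at 36 to 94 raw counts per library. Without control replicate 1, its lowest control, the estimate was -0.49 and passed the threshold (adjusted p = 0.0313). A fit with the replicate block, which sets each treated library against its own day, left CDC45 uncalled like the fit without it.

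**Figure D2:**
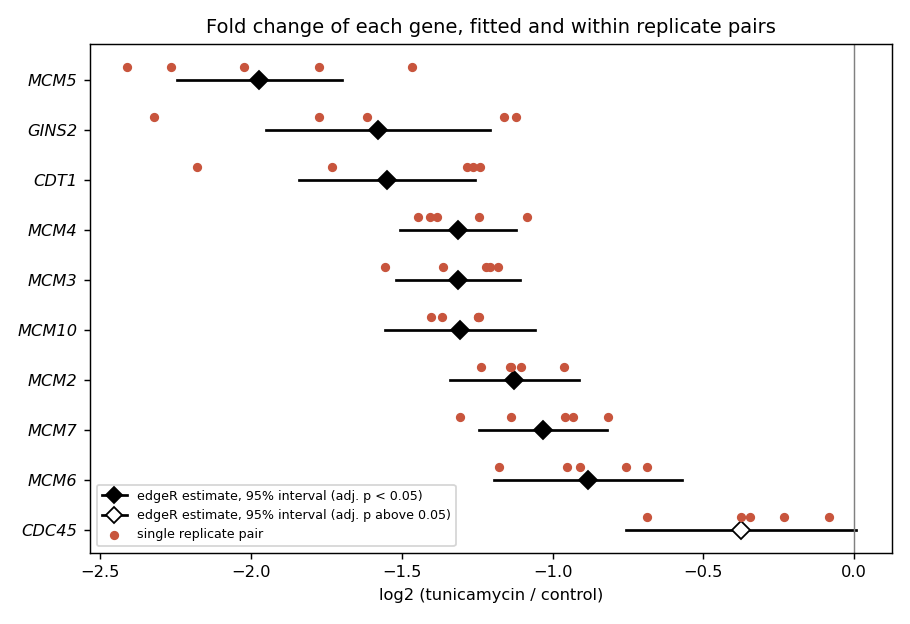
Log2 fold change of each gene, with the edgeR estimate and its 95% interval (diamonds and lines) and the ratios within the 5 replicate pairs (points above each line). Estimates run from -1.97 (MCM5) to -0.38 (CDC45), and every pair lies below 0.

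In the gene annotation (GENCODE, GRCh38) the last 500 transcribed bases, where 3′ tags arise, overlap an exon on the opposite strand in MCM2, CDC45 and GINS2 (in GINS2 that of GSE1). The strand setting of the counting was not given beyond the use of default settings, so reads of the antisense partner in these 3 genes cannot be set apart. MCM7 shares exon sequence with MIR93 and, on the other strand, with AP4M1, but not in its last 500 bases, and no such overlap was found for the other 6 genes. Among the genes given with values below, TICRR, GINS4, ASF1B, E2F5 and ACTA2 have an opposite-strand overlap of this kind. So do LRWD1, ORC4, CCNE2, RBL2 and UFD1L, which enter the list counts only. Genes outside the lists, named below only for a similar pattern, were not examined for overlap.

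The protein ring takes up its 6 subunits in equal number, which makes their proportion in the RNA of interest. The summed counts of MCM2 to MCM7 fell from 2660 ± 207 to 1088 ± 66.4 (SD, n = 5 each), so that 40.9% was left. Shares of this sum are shares of 3′ tags within a library and do not depend on scaling between libraries. The share of MCM5 was 18.5%, 16.6%, 15.8%, 15.97% and 16.6% in the controls and 9.80%, 10.1%, 10.9%, 12.4% and 8.35% with tunicamycin, with no overlap. The mean difference of -6.37 percentage points had an adjusted p of 0.0317 by a two-sided exact permutation test over libraries, adjusted over the 6 subunits, and its unadjusted p of 0.00794 is the smallest that 5 against 5 libraries can give.

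The shares of MCM7 and MCM6 moved the other way. MCM7 went from 20.8% ± 1.32 to 24.8% ± 1.90 (SD, n = 5 each) and MCM6 from 3.46% ± 0.53 to 4.50% ± 0.54, each higher in 5 of 5 pairs (exact permutation test, adjusted p = 0.0317 for either). In both genes the lowest treated library overlapped the highest control. Their calls were less firm than that of MCM5: with all libraries thinned to the depth of the shallowest, each had an adjusted p of 0.0635 by the same exact test, while the call for MCM5 held. Leaving out single libraries kept the MCM5 call in 10 of 10 cases, that of MCM7 in 5 and that of MCM6 in 4. Within pairs an exact sign-flip test of 5 pairs cannot go below 0.0625, so that no share could pass it (adjusted p = 0.125 for MCM5, MCM6 and MCM7).

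No change in share passed the test for MCM2, MCM3 or MCM4. Their differences were 1.96, -0.27 and -0.42 percentage points, with adjusted p of 0.381, 0.675 and 0.648 by the exact permutation test. When shares were taken of the summed counts of all 10 genes, which fell to 41.1% of the control mean, CDC45 rose from 2.33% ± 0.56 to 4.41% ± 0.93 (SD, n = 5 each), and was higher in 5 of 5 pairs (exact permutation test, adjusted p over the 10 genes 0.0397). Testing CDC45 this way was decided after its counts had been seen, and the call was lost when any of the 5 control libraries was left out (adjusted p up to 0.0794 by the exact test). A share shows unequal change and not which transcript moved.

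**Figure D3:**
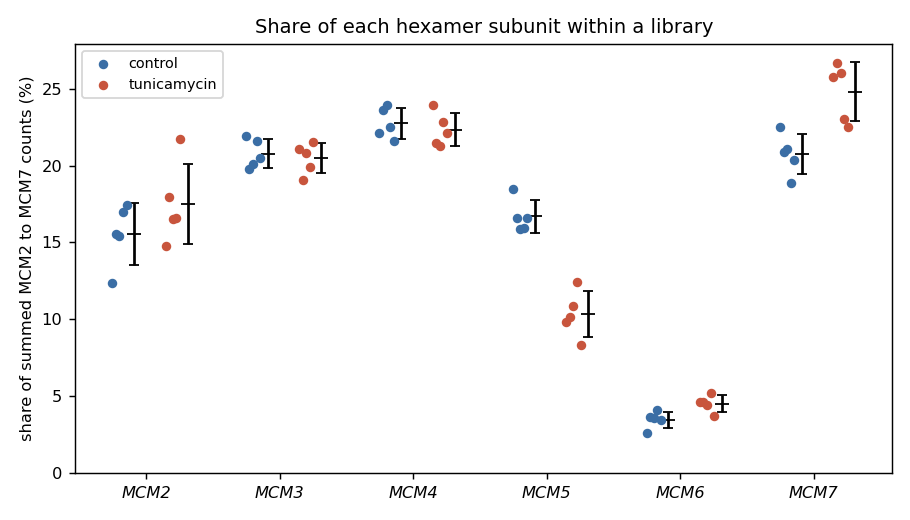
Share of each subunit in the summed MCM2 to MCM7 counts of a library, in percent, for the 5 control and 5 tunicamycin libraries. MCM5 drops from 15.8 to 18.5% to 8.35 to 12.4% with no overlap, whereas MCM6 and MCM7 rise with a slight overlap.

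Around the helicase, most origin recognition genes did not pass the test. Of 8 tested genes (ORC1 to ORC6, LRWD1 and CDC6) 2 fell and 0 rose, beside 16.6% and 17.6% of all genes tested, with a median log2 fold change of -0.36. ORC1, the largest and the cell cycle regulated subunit of the complex, fell from 53.8 ± 6.35 to 22.4 ± 7.52 normalized counts, a log2 change of -1.30 (adjusted p = 8.34e-05). CDC6, the ATPase that loads the ring with CDT1, fell from 291 ± 19.8 to 212 ± 35.1, a log2 change of -0.46 (adjusted p = 0.00371), and this call was lost with libraries thinned to equal depth (adjusted p = 0.0602). ORC2, the uncalled gene with the most counts, had a log2 fold change of -0.17 with an interval from -0.41 to 0.07. The 6 uncalled genes, ORC2 to ORC6 and LRWD1, lay between -0.45 and 0.22.

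Among 9 genes that police licensing, 4 fell, 2 rose and 3 were uncalled, where 16.6% of all genes tested fell and 17.6% rose. DTL, the substrate receptor through which the CUL4-DDB1 ligase destroys CDT1 in S phase, fell from 186 ± 19.5 to 50.1 ± 7.62, a log2 change of -1.89 (adjusted p = 3.92e-09). SKP2, the receptor of another ligase acting on CDT1, fell by 0.92 (adjusted p = 1.9e-05), and GMNN, encoding the CDT1 inhibitor geminin, fell by 0.85 on the log2 scale, from 298 ± 26.7 to 164 ± 16.1 (adjusted p = 3.61e-06). The transcripts of CDT1 and of its inhibitor and its receptors were thus lower in the same libraries. PCNA, the sliding clamp on which CDT1 is recognised, was the other gene that fell. DDB1, the adaptor of the DTL ligase and also of DNA repair, rose from 680 ± 93.4 to 940 ± 97.8 (log2 change 0.47, adjusted p = 0.00169). MCMBP, which binds MCM subunits outside the ring, rose from 52.3 ± 10.5 to 90.8 ± 5.98, a log2 change of 0.79 (adjusted p = 0.000519). CUL4A, the scaffold of the ligase, had a log2 fold change of 0.18 with an interval from -0.02 to 0.38.

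Most of the firing factors and their kinases fell. Of 14 tested genes 11 fell and 0 rose, compared with 16.6% and 17.6% of all genes, and their median was -0.84. The number that fell was 8 in libraries thinned to equal depth and 9 in DESeq2 with the replicate block. RECQL4, which helps to assemble the active helicase, fell from 420 to 191 normalized counts (log2 change -1.13, adjusted p = 1.44e-07). TICRR, also called treslin, and CDK2, the S phase kinase that acts on it, fell by 1.10 (adjusted p = 0.000457) and 1.02 (adjusted p = 8.93e-08) on the log2 scale. Of the kinase pair CDC7 and DBF4, the regulatory subunit DBF4 fell from 218 ± 22.1 to 126.2 ± 31.7 (log2 change -0.76, adjusted p = 0.00037). The catalytic subunit CDC7 was not called, with a log2 change of -0.26 and an interval from -0.67 to 0.14.

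Of the other GINS subunits, GINS1 fell from 132 ± 16.4 to 70.5 ± 16.6 normalized counts, a log2 change of -0.93 (adjusted p = 0.000142). GINS4 fell from 43.8 to 22.0 normalized counts, with a log2 change of -0.98 (adjusted p = 0.00461). GINS3 stood at 38.5 ± 11.1 and 29.3 ± 6.25, and its log2 change of -0.37, with an interval from -0.84 to 0.10, did not pass the test (adjusted p = 0.219). With GINS2, 3 of the 4 subunits therefore fell, where 16.6% of all genes tested fell. GINS4 rested on 11 to 33 raw counts in a treated library.

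The proteins that travel with the helicase gave 5 lower, 1 higher and 2 uncalled genes of 8, against 16.6% lower and 17.6% higher over all genes tested. CLSPN, encoding the fork protein claspin, fell from 400 to 157 normalized counts (log2 change -1.35, adjusted p = 4.5e-09), and WDHD1, which links the helicase to DNA polymerase alpha, fell by 1.11 on the log2 scale (adjusted p = 0.000246). The histone chaperones ASF1A and ASF1B, which bind the same histones at the fork together with MCM2, moved in opposite directions. ASF1B fell from 289 to 144 normalized counts (log2 change -1.02, adjusted p = 8.23e-06), whereas ASF1A rose from 67.8 to 130 (log2 change 0.93, adjusted p = 6.98e-05). SSRP1, a subunit of the FACT chaperone, was at 1343 normalized counts in the controls and 1282 with tunicamycin, with a log2 change of -0.06 and an interval from -0.27 to 0.14.

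The MCM paralogues stand outside the ring of MCM2 to MCM7 and act mainly in DNA repair by recombination. MCM8 fell from 255 to 148 normalized counts, a log2 change of -0.78 (adjusted p = 1.48e-05). Its partner MCM9 was at 21.8 and 21.5, with a log2 change of -0.06 and an interval from -0.60 to 0.48, and the difference between the paralogues was not tested. Among 8 genes of helicase unloading, which take the ring off DNA at the end of replication, 2 fell, 1 rose and 5 were uncalled, close to the 16.6% and 17.6% of all genes tested. The ligase genes TRAIP (log2 change -0.94, adjusted p = 0.0037) and LRR1 (log2 change -0.38, adjusted p = 0.0299) were the lower ones, and LRR1 lost its call in 6 of 10 fits that left out a library. VCP, the segregase that extracts the ring and is also a central component of ER-associated degradation, rose from 1052 ± 32.3 to 1624 ± 63.1, a log2 change of 0.63 (adjusted p = 3.39e-06). FAF1, a cofactor of VCP, had a log2 change of 0.21 with an interval from -0.04 to 0.45.

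**Figure D4:**
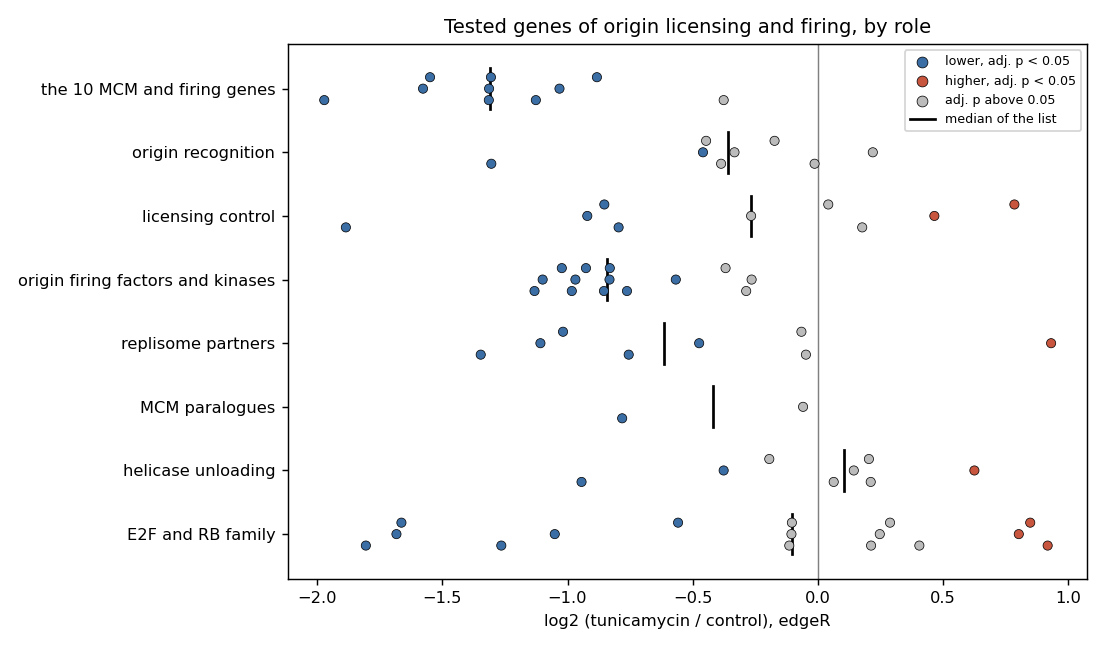
Log2 fold change (tunicamycin over control, edgeR) of every tested gene in each role list, 1 point per gene, coloured by whether it fell, rose or missed the adjusted p of 0.05, with the median of the list as a bar. The 10 MCM and firing genes have a median of -1.31, the firing factors and kinases -0.84 and the unloading genes 0.10.

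The E2F and retinoblastoma families held genes that fell and genes that rose. Of 16 tested genes 6 fell (E2F1, E2F2, E2F7, E2F8, RBL1 and TFDP2), 3 rose and 7 were uncalled. Over all genes tested 16.6% fell and 17.6% rose, so that the share that rose was near that background. E2F2, an activating member, fell from 59.2 to 16.4 normalized counts (log2 change -1.81, adjusted p = 1.67e-06). The atypical repressors E2F7 and E2F8 fell by 1.68 (adjusted p = 0.000417) and 1.66 (adjusted p = 0.000493) on the log2 scale. Both rested on few tags, with 4 to 12 raw counts of E2F7 and 5 to 8 of E2F8 in a treated library. E2F4 and E2F5, which act mostly as repressors in resting cells, rose by 0.85 (adjusted p = 0.00142) and 0.92 (adjusted p = 6.5e-05). RB1 rose from 63.9 to 112 normalized counts (log2 change 0.80, adjusted p = 0.0125). Its groups overlapped, however, and the call was lost in thinned libraries (adjusted p = 0.0814). TFDP1, a partner of many but not all E2F proteins, had a log2 change of -0.10 with an interval from -0.40 to 0.19.

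Across the 10 libraries the correlation among the helicase genes came mainly from the difference between the conditions. The correlation of each gene with the mean of the other 9 was 0.926 to 0.985, and 0.501 for CDC45. Once the mean of each condition was subtracted it lay between -0.18 (MCM10) and 0.542 (GINS2). The part of counting noise in these values was not tested, so common movement within a condition cannot be judged from them. The genes most like the mean of the 10 over the 10 libraries, among 9697 genes with a mean of at least 20 normalized counts, were CPB2 (r = 0.995), FBLN1 (r = 0.995), APOC3 (r = 0.994), SERPINA5 (r = 0.993) and ACLY (r = 0.992). All 5 fell, from -0.55 on the log2 scale for ACLY to -2.60 for CPB2. Since they were picked to follow a mean that itself fell, their direction was set by the choice. How many other genes reach correlations near these was not counted. After subtraction of the condition means the closest were CDK4 (r = 0.989), ACTA2 (r = 0.983), FAF1 (r = 0.979), CNPPD1 (r = 0.976) and MED31 (r = 0.961), of which none passed the test between conditions (adjusted p from 0.106 to 0.822). These correlations share libraries and depth and are given as a description.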

How the data were processed

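The authors deposited raw counts per gene for 10 HepG2 libraries, made from 3′ tag reads by an nf-core RNA-Seq workflow with hg19 and an Ensembl annotation. The workflow was run with default settings, and its aligner, counter and strand setting are not given by name in the sources used here. All sample columns could be assigned (0 left over). Of the 32738 genes, 15320 were at 0 in all libraries.

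Counts were filtered (filterByExpr, minimum count 2, total 10), scaled by TMM and tested by edgeR's quasi-likelihood test (R 4.3.3, edgeR 4.0.16, limma 3.58.1), 5 control against 5 tunicamycin, with Benjamini-Hochberg adjustment over 12733 genes and a threshold of 0.05. This design was checked on simulated counts. Normalized counts are counts scaled by the TMM library size. The ± values after log2 changes are standard errors, others are SDs. Shares were compared by exact permutation tests over libraries, two-sided. The 3′ tags carry no length normalization, so levels were not compared between genes. Gene positions come from GENCODE on GRCh38, matched by gene ID, and promoters from RefSeq. No coordinates were converted between builds.

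The members and gene lists were chosen with earlier results of these data known. Named with values were the 10 members, per list up to 3 lower and 3 higher called genes with the greatest change and the uncalled gene with the most counts, ORC1, CDC6, GMNN, GINS1, GINS3, GINS4, CDC7, DBF4, MCM8, MCM9, and the 5 most similar genes by either measure. Marker and stress genes served as checks only.

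Replicate numbers pair the libraries because the series text gives each replicate its own day. Deviations of libraries with the same number correlated at 0.361, 0.0153, 0.0674, 0.165 and 0.145 over 9707 genes. Alternatives were DESeq2 (1.42.0) and its size factors, scaling by library size only, no filter, default filter minimums, the replicate block, thinned libraries, removal of mitochondrial genes and leaving out each library or pair.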

Additional observations from a re-analysis of the deposited data

Results flagged for a closer look

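Of 106 groups of 5 values examined, 7 held a library far from the other 4, and about 1 in 20 groups, or 5.3, would do so by chance. Causes were not tested. MCM5 was at 559.5 normalized counts in control replicate 1 against 410.3 to 425.3 in the other controls, and its share of the MCM2 to MCM7 counts was 18.5% there against 15.8 to 16.6%. MCM7 was at 234.1 in tunicamycin replicate 5, the shallowest library, against 274.8 to 289.1. ORC1 was at 42.8 in control replicate 2 against 55.1 to 59.4. ASF1B was at 229.8 in control replicate 1 against 295.7 to 318.2, whereas SSRP1 in the same library was at 1617 against 1218 to 1310. VCP was at 1109 in control replicate 3 against 1031 to 1043.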

How the results depend on the processing

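The number of MCM and origin firing genes that fell was 9 in each alternative but 1 (10 without control replicate 1, where CDC45 was added), and their median log2 fold change stayed between -1.39 and -1.25. Scaling by library size only gave 2570 lower and 1774 higher genes, against 2116 and 2237, and a median of all genes of -0.08. The replicate block called 4811 genes against 4353 and changed no call among the 10 genes. In the role lists it gave 3 lower origin recognition genes (2 without it), 10 lower firing factors and kinases (11) and 4 higher E2F and RB genes (3), and it changed no other count. The number of lower origin recognition genes, 2, was 4 with library size only and 1 with thinned libraries, and that of helicase unloading, 2, was 1 with thinned libraries and in DESeq2 with the block (1 to 2 with replicates left out, and 1 to 2 for higher genes).

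In the shares of the MCM sum, thinning gave 0.18 points for MCM4 (-0.42 as reported), 1.23 for MCM6 and 3.40 for MCM7, the last 2 no longer called. Taken of all 10 genes the differences were 0.84 for MCM6 and 3.23 for MCM7, again uncalled. Paired as a replicate block they were -6.37 (MCM5), 1.04 (MCM6), 4.07 (MCM7) and 2.08 (CDC45 among the 10), all uncalled since 5 pairs cannot pass. With replicates left out they ranged from -0.53 to 0.0825 for MCM3, 0.83 to 1.24 for MCM6, 3.59 to 4.64 for MCM7 and 1.80 to 2.33 for CDC45, an alternative chosen after seeing the data. Among genes given with values, the uncalled log2 changes that crossed 0 this way were those of SSRP1 (-0.11 to 0.0111), MCM9 (-0.25 to 0.16) and TFDP1 (-0.21 to 0.0307). Libraries held 36 to 94 raw counts of CDC45 and 19 to 117 of MCM6, and the part of depth in their intervals was not tested.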

Other observations

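Promoter letters were also counted in the other role lists. The E2F letters of 7 bases were present in 6 of 9 matched genes of licensing control, 4 of 8 firing factors and kinases, 4 of 8 replisome partners, 3 of 8 origin recognition genes, 1 of 7 unloading genes, 1 of 2 MCM paralogues and 9 of 15 E2F and RB family genes, against 15.3% of all genes in the promoter table. Within the origin recognition list they were present in both called genes, ORC1 and CDC6, and in the uncalled ORC3. Over all role lists together, the letters were present in 16 of 25 matched and tested genes that fell, in 1 of 6 that rose (MCMBP) and in 11 of 25 that were uncalled. Of the matched helicase genes that fell, 6 of 7 held them, with MCM10 as the exception, and the uncalled CDC45 did not. These counts are a description, and promoters of one gene with several starts were counted once.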
